A study of Mus musculus with 5 samples.

Results

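The 10 genes described here, chemokines and chemokine receptors of the CXC and CX3C families, were followed in single cells of mouse kidney at day 10 and at 48 h after ischemia-reperfusion injury, in which the blood supply is interrupted and then restored. They are 5 CXC ligands (Cxcl1, Cxcl2, Cxcl10, Cxcl12 and Cxcl16), 3 CXC receptors (Cxcr2, Cxcr4 and Cxcr6), the CX3C ligand Cx3cl1 and its receptor Cx3cr1. The genes were taken by symbol, without use of their values, and all 10 were found among the 32285 genes of the files. Day 10 was represented by mice 3, 4 and 5 and 48 h by mice 1 and 2, with 1 kidney library per mouse. No uninjured kidney was analysed here, so each difference is between a late and an early time after injury. The labels give no strain, sex, age, injury protocol or batch for either group. Libraries were 3' single-cell libraries in which each captured molecule carries a unique molecular identifier (UMI).

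The day 10 libraries held 5912, 3909 and 5361 kept cells and the 48 h libraries 4895 and 3720, with 57375234 to 78351722 summed UMIs at day 10 and 45887945 and 60583527 at 48 h. The median cell held 10328.5, 11750 and 10448 UMIs at day 10, against 5823 and 6260 at 48 h, and 57 barcodes occurred in more than 1 library. Cells carried the authors' 18 cell type labels, and 4 of the authors' 16 clusters lay within the immune label. A level below is in counts per 1000000 (CPM), the UMIs of a gene per 1000000 UMIs summed over the cells of 1 label or cluster in 1 library, and a share is the percent of those cells with at least 1 UMI of the gene. Marker lists were used to check the labels. Cluster 0 of the immune label held the macrophage list at 14927 to 16257 CPM at day 10 and 6041 to 9274 CPM at 48 h, with monocyte markers at 526 to 845 and 3400 to 5093 CPM at the same times, and is called macrophage-like. Cluster 5 held the neutrophil list at 56691 to 64142 CPM at day 10 and 164100 to 216397 CPM at 48 h and is called neutrophil-like. Cluster 10 carried T and NK cell markers and is called T/NK-like, and cluster 12 carried B cell markers. The epithelial, endothelial, interstitial and podocyte labels were each highest for their own list or shared the highest levels with a neighbouring segment. Day 10 and 48 h differ in the state of these classes as well as in the genes described here.

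Chemokines are small secreted or membrane-tethered proteins that steer leukocytes along gradients through G protein-coupled receptors. Cxcl1 and Cxcl2 bind Cxcr2 and draw neutrophils, Cxcl10 binds Cxcr3 and draws activated T cells, and Cxcl12 binds Cxcr4 and holds leukocytes and progenitors near stromal cells. Cxcl16 and Cx3cl1 are made as membrane proteins that can be shed by proteases, and they bind Cxcr6 on T and NK cells and Cx3cr1 on monocytes and macrophages.

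The promoters of 3 inducible ligands are shown with that of Cxcl12 for contrast, because both the neutrophil attractants and Cxcl10 lie on 1 chromosome and carry the same type of response element. Cxcl1 (5:90891241-90893115, plus strand) and Cxcl2 (5:90903871-90905938, plus strand) start 12630 bases apart, and Cxcl10 (5:92346638-92348889, minus strand) lies 1.441 Mb from Cxcl2 (GENCODE positions on GRCm38, the assembly also called mm10). Each window below runs 5′ to 3′ over 250 bases before and 50 bases after the RefSeq gene start on GRCm38.p6. The windows are chr5:90890995-90891294 for Cxcl1, chr5:90903649-90903948 for Cxcl2, chr5:92348840-92349139 on the minus strand for Cxcl10 and chr6:117168285-117168584 for Cxcl12. Capitals mark matches to any of 4 motifs searched on both strands.
Cxcl1: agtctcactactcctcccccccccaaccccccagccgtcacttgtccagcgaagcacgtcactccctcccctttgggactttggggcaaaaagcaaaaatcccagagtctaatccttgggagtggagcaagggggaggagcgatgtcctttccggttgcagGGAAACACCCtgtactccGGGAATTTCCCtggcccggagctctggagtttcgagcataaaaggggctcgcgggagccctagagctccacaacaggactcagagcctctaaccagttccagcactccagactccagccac
Cxcl2: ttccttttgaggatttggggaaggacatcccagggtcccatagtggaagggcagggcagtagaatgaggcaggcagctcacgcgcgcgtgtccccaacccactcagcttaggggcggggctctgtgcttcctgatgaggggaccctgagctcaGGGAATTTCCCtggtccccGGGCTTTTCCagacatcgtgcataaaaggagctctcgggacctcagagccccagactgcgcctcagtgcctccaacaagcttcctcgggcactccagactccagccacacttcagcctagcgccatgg
Cxcl10: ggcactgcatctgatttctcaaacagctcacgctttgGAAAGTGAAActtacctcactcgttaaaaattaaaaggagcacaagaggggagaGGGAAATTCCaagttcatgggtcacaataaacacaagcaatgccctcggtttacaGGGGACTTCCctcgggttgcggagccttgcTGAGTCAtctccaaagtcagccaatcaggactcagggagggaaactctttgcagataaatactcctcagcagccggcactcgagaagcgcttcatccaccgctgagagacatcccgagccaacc
Cxcl12: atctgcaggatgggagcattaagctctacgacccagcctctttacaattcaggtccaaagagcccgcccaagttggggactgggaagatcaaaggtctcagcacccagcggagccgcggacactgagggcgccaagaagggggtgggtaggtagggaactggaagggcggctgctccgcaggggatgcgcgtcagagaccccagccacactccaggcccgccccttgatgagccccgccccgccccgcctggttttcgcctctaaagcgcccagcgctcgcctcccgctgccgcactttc
The first motif was GGGNNNTTCC, an NF-kB type element, found in 5.56% of 32851 RefSeq promoters of the same length and in 3 of the 9 members whose promoter was matched by symbol. Those members are Cxcl1 and Cxcl2, whose capitals are all of this type with overlapping matches on both strands in the run GGGAATTTCCC, and Cxcl10, with matches at window positions 92 to 101 and 147 to 156 counted from the 5′ end. The interferon response type GAAANNGAAA occurred in 3.44% of promoters and once here, in Cxcl10 at positions 38 to 47. The AP-1 type TGANTCA occurred in 7.81% of promoters and in Cxcl10 at positions 177 to 183, and the CRE type TGACGTCA in 1.79% and in 0 of the 9. The Cxcl12 window held no match. A match describes letters in the window and not a bound site.

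Each member had a leading cell class. Averaged over the 5 mice, the highest levels were in Injured PTECs (the injured proximal tubule label) for Cxcl1, in the neutrophil-like cluster for Cxcl2, Cxcr2 and Cxcr4, in DescThinLOH (descending thin limb) for Cxcl10, in interstitial cells for Cxcl12 and Cx3cl1, in the macrophage-like cluster for Cxcl16 and Cx3cr1, and in the T/NK-like cluster for Cxcr6. Over the 17 classes with 20 or more cells in each library, with labels outside the immune cells taken whole, the 5 mice of the leading class did not overlap those of the second for Cxcl2, Cxcl12, Cxcr2, Cxcr4, Cxcr6, Cx3cl1 and Cx3cr1. The ratio of the first class to the second was 167 for Cxcr2 (second in endothelial cells, 225 UMIs), 23.2 for Cx3cr1 (cluster 5, 49 UMIs), 13.0 for Cxcl2 (Injured PTECs), 8.95 for Cxcl12 (endothelial cells), 7.86 for Cxcr4 (CD: ICs) and 1.66 for Cx3cl1 (AscenThickLOH). The second class of Cxcr6, cluster 5, held 6 UMIs over all libraries, too few for a ratio. Podocytes and cluster 12, with fewer than 20 cells in a library, were left out of this order. Podocytes had 68.5 to 148 CPM of Cxcl12, above the 15.9 to 48.8 CPM of endothelial cells and just below the 149 to 639 CPM of interstitial cells. Cluster 12 had 28.1 to 189 CPM of Cxcr4, which overlaps the 119 to 430 CPM of cluster 5. The lead of interstitial cells for Cx3cl1 holds only for whole labels, since the endothelial cluster 8 described below had 102 to 324 CPM. For Cxcl1, Cxcl10 and Cxcl16 the ranges of the first and second class overlapped, so their order is not set by these mice. Cxcr2 is among the 10 genes that most set cluster 5 apart from the other immune clusters, so its place there is part of what defines the cluster.

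**Figure D1:**
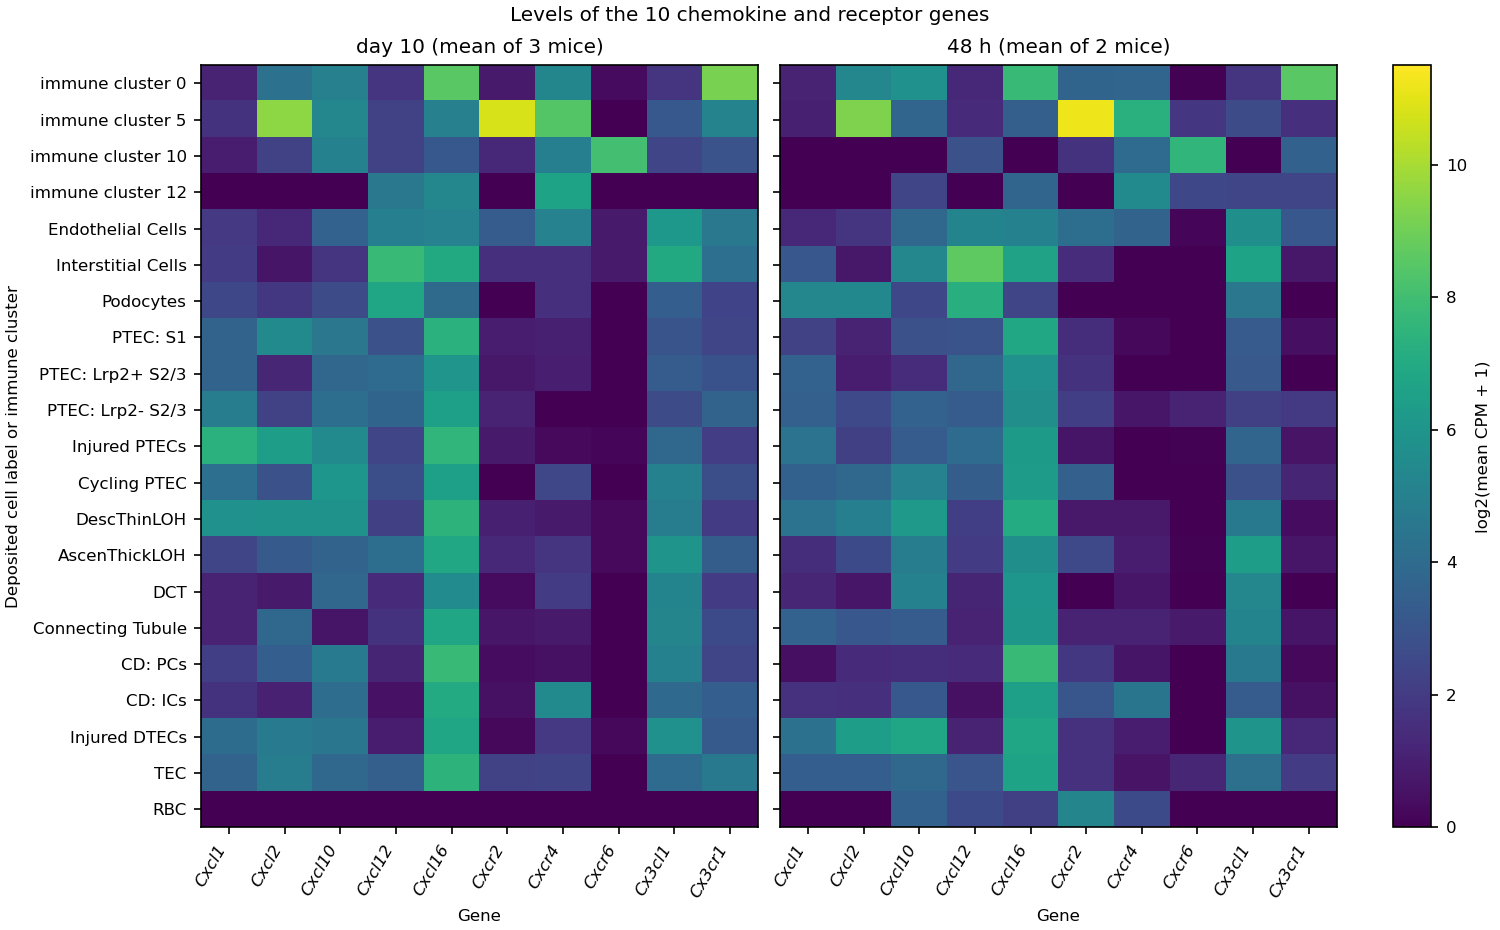
Mean level of the 10 members (columns) in every label and immune cluster (rows), as colour on the scale log2(mean CPM + 1), with day 10 (mean of 3 mice) in the left panel and 48 h (mean of 2 mice) in the right panel. Cxcr2, Cxcr6 and Cx3cr1 were each brightest in 1 immune cluster at both times, whereas Cxcl10 and Cxcl16 were spread over tubular and immune classes.

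Between the times, 84 pairs of a member and a label and 16 pairs of a member and an immune cluster passed the filter on low counts and were tested. Of the label pairs 12 were called, 6 rising and 6 falling at day 10, and of the cluster pairs 7 were called, 4 rising and 3 falling (edgeR quasi-likelihood test, Benjamini-Hochberg adjusted p under 0.05 over all genes of that label or cluster). The background differed widely between classes. In AscenThickLOH (the thick ascending limb) 5 of 9 members tested were called and 10.4% of all genes, in the whole immune label 4 of 10 and 19.2%, in Injured PTECs 1 of 7 and 5.88%, in Injured DTECs (injured distal tubule) 1 of 6 and 0.199%, and in interstitial cells 1 of 6 and 7.44%. In cluster 0 the call was made for 4 of 9 members and 24.1% of all genes, and in cluster 5 for 3 of 5 and 18.5%. No member was called in the other 10 labels with 20 or more cells per library, where 0 of 46 pairs passed in edgeR, 15 had an unadjusted p under 0.05 and DESeq2 called 5. Of all genes 5.12% were called in DescThinLOH, 2.82% in PTEC: S1, 1.43% in PTEC: Lrp2- S2/3, 1.07% in PTEC: Lrp2+ S2/3, 0.721% in DCT, 0.525% in TEC, 0.328% in endothelial cells, 0.238% in CD: ICs, 0.0628% in CD: PCs and 0.0104% in Connecting Tubule. In cluster 10 the call was made for 0 of 2 members and 0.0971% of all genes, with 0 members at an unadjusted p under 0.05 and 0 called by DESeq2. Of the 100 tested pairs, 15 passed the filter only through day 10 libraries and 2 only through 48 h libraries, so that a gap between the times was built into their selection. Among the called pairs these are Cx3cr1 in AscenThickLOH and Cx3cr1 and Cxcl16 in cluster 5, which passed through day 10, and Cxcl10 in interstitial cells, which passed through 48 h. Over the members that passed, the median log2 fold change per class lay between -0.58 in DCT and 1.87 in Injured PTECs, with 0.80 in AscenThickLOH, 0.65 in cluster 5, 0.12 in cluster 0, -0.25 in interstitial cells and -0.43 in Injured DTECs. The median over all genes was between -0.013 and 0.072 in every class. Cycling PTEC, Podocytes, RBC and cluster 12 held fewer than 20 cells in a library and were not tested.

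**Figure D2:**
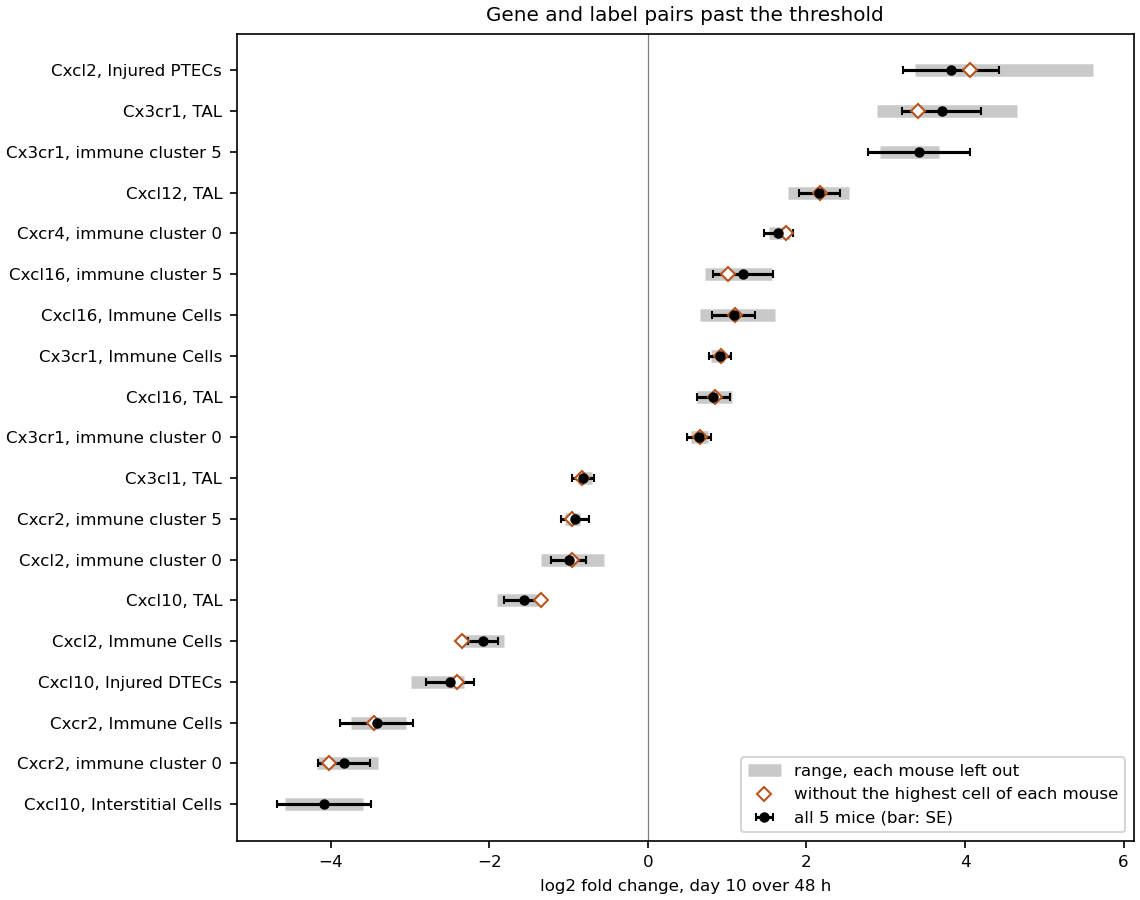
Log2 fold change of day 10 over 48 h (x axis) for each pair of a member and a label or immune cluster past the adjusted threshold (y axis, TAL for AscenThickLOH), as black points with the standard error, with the range of the fits without 1 mouse as grey bars and the fit without the highest cell of each library as open diamonds, which Cxcl10 in interstitial cells and Cx3cr1 in cluster 5 lack because too few UMIs remained for a test. Among these pairs the largest rise was that of Cxcl2 in Injured PTECs (3.83) and the largest fall that of Cxcl10 in interstitial cells (-4.08).

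Cxcr2, the receptor for Cxcl1 and Cxcl2, was measured in the neutrophil-like cluster at 1934, 1770 and 1699 CPM at day 10, against 2334 and 2467 CPM at 48 h. All 3 day 10 mice lay below both 48 h mice, and Cxcr2 fell there (log2 fold change -0.92, SE 0.18, adjusted p = 0.00666, edgeR). Its share of cells was 87.8, 84.4 and 88.2% at day 10 and 98.5 and 98.8% at 48 h, where the median cell of the cluster held 2556, 2628 and 2706 UMIs at day 10 and 3271.5 and 4831.5 UMIs at 48 h. With every cell thinned to 1000 UMIs the mean share was 70.3% at day 10 and 87.1% at 48 h. In PTEC: S1, a proximal tubule label that should lack the gene, the share was 0.568, 1.71 and 0.29% at day 10 and 0.397 and 1.77% at 48 h, at median depths of 10072, 12912 and 12842 UMIs against 5682.5 and 7949 UMIs. The neutrophil list itself was lower in the cluster at day 10, so that Cxcr2 stood at 34.1, 30.5 and 26.5 UMIs per 1000 neutrophil marker UMIs at day 10 and at 14.2 and 11.4 at 48 h. The call was not made without mouse 5 (adjusted p = 0.0653). With library sizes alone as scaling, under which the median of all genes in the cluster was 0.57 in place of 0.04, the change was -0.39 (adjusted p = 0.0968).

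In the macrophage-like cluster Cxcr2 had 0.730, 0.687 and 0.981 CPM at day 10, against 15.1 and 8.66 CPM at 48 h, with no overlap. It fell (log2 fold change -3.83, SE 0.33, adjusted p = 0.00282, edgeR), on 57 UMIs at day 10 and 198 UMIs at 48 h. Neutrophil markers in this cluster moved with it, at 57.9 to 102 CPM at day 10 and 1449 to 3273 CPM at 48 h for the 6 markers together. Per 1000 neutrophil marker UMIs, Cxcr2 stood at 12.6, 7.63 and 9.60 at day 10 and at 10.4 and 2.65 at 48 h, values that overlap. The whole immune label gave a fall of 3.42 on the log2 scale (SE 0.46, adjusted p = 0.00785), not called without mouse 2 (adjusted p = 0.0747), and it mixes 90 to 229 neutrophil-like cells per library at day 10 with 332 and 520 at 48 h.

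Cxcl2, an inducible neutrophil attractant, had 263, 1541 and 445 CPM in the neutrophil-like cluster at day 10, against 834 and 401 CPM at 48 h. The groups overlapped and no call was made (log2 fold change -0.25, SE 0.56, adjusted p = 0.792, edgeR). In mouse 4, 1 cell held 72.8% of the cluster's 404 Cxcl2 UMIs. With the highest cell of each library left out, the levels were 220, 422 and 352 CPM at day 10 and 797 and 364 CPM at 48 h, and Cxcl2 then fell (log2 fold change -1.32, SE 0.31, adjusted p = 0.0145). The share of positive cells was 15.7, 16.7 and 14.7% at day 10 and 37.7 and 27.7% at 48 h, without overlap. Leaving out mouse 4 gave the fall as well (-1.29, adjusted p = 0.017).

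In Injured PTECs Cxcl2 had 73.6, 143 and 44.3 CPM at day 10, against 5.86 and 1.23 CPM at 48 h. Every day 10 mouse exceeded both 48 h mice, and Cxcl2 rose (log2 fold change 3.83, SE 0.60, adjusted p = 0.0173, edgeR). The UMIs came from 55, 8 and 34 positive cells at day 10 and from 23 and 3 at 48 h. Without the highest cell of each library the levels were 60.5, 66.0 and 32.5 CPM at day 10 and 2.98 and 0.618 CPM at 48 h (log2 fold change 4.06, adjusted p = 0.0111). The call was not made without mouse 2 (adjusted p = 0.0596), without mouse 3 (0.0533) or with all proximal tubule labels merged (0.0697, with 3.22% of genes called). The fold was 5.61 on the log2 scale without mouse 1, where mouse 2 alone stood for 48 h with 4 Cxcl2 UMIs in this label.

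In the macrophage-like cluster Cxcl2 had 19.3, 18.1 and 18.4 CPM at day 10, against 49.5 and 28.1 CPM at 48 h, and fell (log2 fold change -0.997, SE 0.22, adjusted p = 0.0251, edgeR). The groups did not overlap, but the call was not made without mouse 1 (adjusted p = 0.102), mouse 3 (0.0541) or mouse 5 (0.0837) or without the highest cells (-0.95, adjusted p = 0.0922). The cluster was divided after its values were seen by whether a cell held a UMI of any of 5 monocyte markers. In cells without one, numbering 918, 713 and 734 at day 10 and 171 and 146 at 48 h, Cxcl2 had 15.3, 17.6 and 25.3 CPM at day 10, against 117 and 192 CPM at 48 h (log2 fold change -2.94, SE 0.26, adjusted p = 7.19e-04, with 28.5% of genes called). In cells with one it had 22.6, 18.5 and 14.6 CPM at day 10, against 29.3 and 5.05 CPM at 48 h, and was not called (0.24, adjusted p = 0.815, with 17.1% of genes called). For the whole immune label the fall was 2.08 on the log2 scale (SE 0.19, adjusted p = 0.00369, edgeR), which was called without any 1 mouse. That label mixes its clusters in unlike parts. The neutrophil-like cluster held 229 of 2226, 90 of 1718 and 211 of 2068 immune cells at day 10, against 332 of 934 and 520 of 1192 at 48 h. The part of this mix in the fall was not tested.

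Cxcl1, the other Cxcr2 ligand measured here, had 96.3, 341 and 45.9 CPM in Injured PTECs at day 10, against 39.0 and 0.919 CPM at 48 h. The day 10 mice all lay above the 48 h mice, but mouse 5 and mouse 1 were close, and no call was made (log2 fold change 2.34, SE 1.08, adjusted p = 0.208, edgeR). Its share of cells was 35.4, 37.5 and 23.1% at day 10 and 22.9 and 3.03% at 48 h. Mouse 4 contributed 48 injured cells, of which 1 held 33.9% of the Cxcl1 UMIs. Without mouse 1, mouse 2 alone stood for 48 h, with 3 Cxcl1 UMIs in Injured PTECs, and the change was 6.88. In DescThinLOH it had 62.4, 36.01 and 66.5 CPM at day 10, against 28.2 and 10.9 CPM at 48 h, and was not called (log2 fold change 1.396, SE 0.38, adjusted p = 0.0685). That value passed without mouse 4 (1.604, adjusted p = 0.0187) and in DESeq2 (1.405, adjusted p = 0.0262). Without mouse 1, which leaves mouse 2 alone at 48 h, the change was 2.34.

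**Figure D3:**
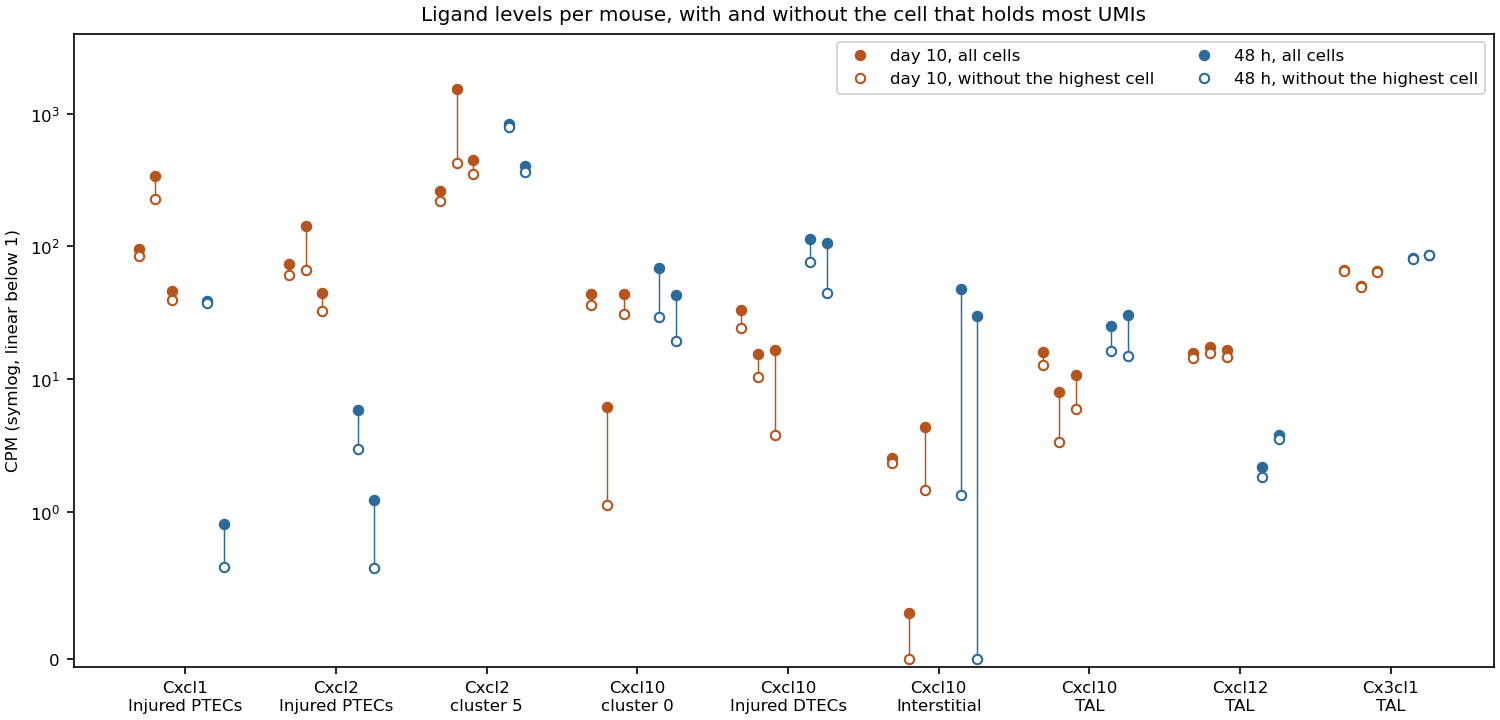
Ligand levels in CPM (y axis, logarithmic above 1 and linear below) in the labels and clusters on the x axis (TAL for AscenThickLOH), 1 point per mouse, with day 10 mice left of 48 h mice, where filled points are all cells and open points the same library without its highest cell. Cxcl2 in Injured PTECs and Cxcl12 in AscenThickLOH were higher in all 3 day 10 mice than in both 48 h mice with and without that cell, whereas the 48 h points of Cxcl10 in interstitial cells dropped to 1.33 and 0 CPM without it.

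Cxcl10, an interferon-induced ligand that draws T cells through Cxcr3, fell at day 10 in AscenThickLOH, Injured DTECs and interstitial cells. In AscenThickLOH it had 16.1, 8.01 and 10.7 CPM at day 10, against 25.4 and 30.3 CPM at 48 h, with no overlap. It fell there (log2 fold change -1.57, SE 0.25, adjusted p = 0.0136, edgeR), although single cells held 21.2 to 58.1% of the UMIs at day 10 and 36.2 and 50.8% at 48 h, and the call was not made with the highest cells left out (adjusted p = 0.0736) or without mouse 5 (0.0867). In Injured DTECs Cxcl10 had 33.2, 15.4 and 16.7 CPM at day 10, against 113.9 and 105.8 CPM at 48 h, again without overlap. The fall of 2.49 on the log2 scale (SE 0.30, adjusted p = 0.0279) was not called without mouse 1 (adjusted p = 0.0692), mouse 4 (0.0831) or mouse 5 (0.182), without the highest cells (0.171), or with distal labels merged (0.299, with 0.00774% of genes called).

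In interstitial cells Cxcl10 had 2.55, 0.314 and 4.33 CPM at day 10, against 47.8 and 29.7 CPM at 48 h, and fell (log2 fold change -4.08, SE 0.59, adjusted p = 0.00568, edgeR). At 48 h, 36 of 37 UMIs in mouse 1 and 17 of 17 in mouse 2 lay in 1 cell each, and without those cells too few UMIs remained for a test. The call was not made without mouse 1 (adjusted p = 0.0937). The 48 h level was thus that of 1 cell in each mouse.

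Proximal tubule labels went the other way in value without a call. Injured PTECs had Cxcl10 at 85.5, 9.45 and 38.5 CPM at day 10, against 13.4 and 4.90 CPM at 48 h (log2 fold change 1.87, SE 0.75, adjusted p = 0.156, edgeR), and the 5 proximal labels merged gave 1.43 (SE 0.63, adjusted p = 0.236).

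Cxcl10 was not called where its mean level was highest. In DescThinLOH it had 46.8, 7.44 and 119 CPM at day 10, against 59.3 and 84.8 CPM at 48 h (log2 fold change -0.35, SE 0.71, adjusted p = 0.842, edgeR). The macrophage-like cluster had 44.2, 6.18 and 43.6 CPM at day 10, against 68.8 and 43.0 CPM at 48 h (log2 fold change -0.79, SE 0.73, adjusted p = 0.467). The day 10 mice spanned the 48 h values in DescThinLOH, and mouse 4 was lowest of the 5 in both classes. In the macrophage-like cluster 1.14 to 3.66% of cells were positive at day 10 and 4.72 and 7.59% at 48 h, and the highest cell held 17.7, 81.9 and 28.9% of the UMIs at day 10 and 57.6 and 55.0% at 48 h.

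The partner of Cxcl10 is not a member, and its level and that of the related ligand Cxcl9 are given for context. Cxcr3 in the T/NK-like cluster had 177, 142 and 141 CPM at day 10, against 119 and 112.9 CPM at 48 h. Cxcl9 in the macrophage-like cluster had 46.2, 20.6 and 59.0 CPM at day 10, against 7.42 and 5.94 CPM at 48 h, and rose (log2 fold change 2.70, SE 0.48, adjusted p = 0.0130, edgeR), with 2.40 to 3.02 when each mouse was left out and no call without mouse 1 or mouse 2.

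Cxcl12, the stromal ligand of Cxcr4, had 233, 199 and 217 CPM in interstitial cells at day 10, against 149 and 639 CPM at 48 h. The 48 h mice lay on either side of the day 10 mice, and no call was made (log2 fold change -0.85, SE 0.47, adjusted p = 0.321, edgeR). The sign depended on mouse 2, without which the value was 0.61, and without mouse 1 it was -1.56. Each of these fits leaves a single library at 48 h. Of the 2 deposited clusters under that label, cluster 7 carried the level, with 272, 237 and 295 CPM at day 10 and 441 and 1547 CPM at 48 h in 240, 208 and 98 cells at day 10 and 28 and 23 cells at 48 h (log2 fold change -1.92, SE 0.41, adjusted p = 0.0516, with 2.24% of genes called). Endothelial cells had 32.4, 15.9 and 41.0 CPM at day 10, against 22.5 and 48.8 CPM at 48 h, which overlap (log2 fold change -0.34, SE 0.41, adjusted p = 0.763). Podocytes, which were not tested, had 106, 147 and 68.5 CPM at day 10, against 142 and 148 CPM at 48 h.

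The thick ascending limb is not a leading class of Cxcl12, yet it was the label in which Cxcl12 was called. AscenThickLOH had 15.7, 17.6 and 16.6 CPM at day 10, against 2.18 and 3.79 CPM at 48 h, or 16.6 ± 0.961 and 2.98 ± 1.14 CPM (SD, n = 3 and n = 2). The groups were far apart relative to their spread, and Cxcl12 rose (log2 fold change 2.16, SE 0.26, adjusted p = 0.00611, edgeR). The UMIs lay in 67, 31 and 40 cells at day 10 and in 23 and 26 cells at 48 h, 16.0, 15.9 and 13.7% of cells at day 10 and 3.37 and 7.54% at 48 h. No cell held more than 15.6% of the UMIs of its library in this label, and without the highest cells the change was 2.17 (adjusted p = 0.00897). Without mouse 5 it was 2.16 with an adjusted p of 0.0582. Levels in PTEC: Lrp2+ S2/3 were 12.3, 15.2 and 17.5 CPM at day 10 and 10.7 and 15.3 CPM at 48 h, and the time effect in AscenThickLOH exceeded that in PTEC: Lrp2+ S2/3 by 2.03 on the log2 scale (SE 0.33, adjusted p = 0.00885, with 3.67% of all genes called in that comparison), not called without mouse 2 (2.16, adjusted p = 0.149).

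Cxcr4, the receptor of Cxcl12, had 40.6, 41.1 and 31.8 CPM in the macrophage-like cluster at day 10, against 11.47 and 13.5 CPM at 48 h. The groups did not overlap, and Cxcr4 rose (log2 fold change 1.65, SE 0.18, adjusted p = 0.00453, edgeR), a call not made without mouse 2 (1.79, adjusted p = 0.0525). Its share of cells was 27.6, 37.4 and 22.8% at day 10 and 11.48 and 11.1% at 48 h, at median depths of 11515, 15686.5 and 10887 UMIs against 13231 and 14660 UMIs, and in CD: PCs (principal cells), which should lack it, the share was 0, 2.56 and 0% at day 10 and 1.54 and 0% at 48 h. In cells of the cluster without a monocyte marker UMI, Cxcr4 had 51.1, 49.6 and 40.2 CPM at day 10, against 3.52 and 0 CPM at 48 h, on 1373 UMIs at day 10 and 6 UMIs at 48 h. The ratio of the summed levels was 23.3, with an exact 95% counting interval of 10.7 to 63.5 (log2 fold change 4.58, SE 0.52, adjusted p = 0.00138). All 6 UMIs at 48 h came from mouse 1, and the fitted change, which then depends on a group with 0 UMIs, was 11.47 without mouse 1 and 3.75 to 4.69 without any other mouse, called in each. In cells with a monocyte marker UMI it had 32.3, 35.5 and 27.2 CPM at day 10, against 13.8 and 15.4 CPM at 48 h (log2 fold change 1.19, SE 0.17, adjusted p = 0.0115), a call not made without mouse 1 (adjusted p = 0.0936) or mouse 2 (0.1195). The division was made after the values were seen.

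The neutrophil-like cluster held Cxcr4 at 430, 359 and 248 CPM at day 10, against 196 and 119 CPM at 48 h. The groups did not overlap, but the test made no call (log2 fold change 0.65, SE 0.27, adjusted p = 0.1103, edgeR). With library sizes alone it was 1.17 (adjusted p = 0.00868). The share of cells was 55.5, 46.7 and 42.2% at day 10 and 39.5 and 32.3% at 48 h, and 26.7% on average at day 10 and 14.5% at 48 h after thinning. Within 1 library the ratio of Cxcr4 to Cxcr2 does not depend on the scaling between libraries. It was 0.222, 0.203 and 0.146 at day 10, against 0.0839 and 0.0484 at 48 h, a log2 difference of 1.56 (exact two-sided permutation test over mice, p = 0.1, the smallest p that 3 against 2 mice allow). Cxcr2 was detected in 89.8, 78.6 and 85.4% of Cxcr4-positive cells and in 85.3, 89.6 and 90.2% of Cxcr4-negative cells at day 10, and in 99.2 and 97.6% against 98.0 and 99.4% at 48 h. Most Cxcr4-positive cells thus also held Cxcr2 at both times.

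Cxcr4 was also measured outside the leukocytes. CD: ICs (intercalated cells) had 52.0, 33.4 and 44.4 CPM at day 10, against 32.4 and 9.74 CPM at 48 h, with 29.5, 26.3 and 24.3% of cells positive at day 10 and 17.9 and 11.1% at 48 h. The lowest day 10 mouse and the higher 48 h mouse were close, and no call was made (log2 fold change 0.84, SE 0.40, adjusted p = 0.508, edgeR). Macrophage markers in that label were at 70.4 to 223 CPM at day 10 and 10.3 to 20.4 CPM at 48 h, and Cxcr4 per 1000 macrophage marker UMIs was 173 to 739 at day 10 and 478 and 3133 at 48 h, against 2.09 to 2.75 and 1.24 and 2.23 in the macrophage-like cluster at the same times. Endothelial cells had 34.1, 40.2 and 25.3 CPM at day 10, against 17.6 and 5.39 CPM at 48 h, without overlap and without a call (log2 fold change 1.41, SE 0.41, adjusted p = 0.207). The T/NK-like cluster had 10.7, 45.9 and 34.5 CPM at day 10, against 17.0 and 13.6 CPM at 48 h (log2 fold change 0.70, SE 0.81, adjusted p = 0.927). Cluster 12 had 83.7, 34.5 and 189 CPM at day 10, against 59.1 and 28.1 CPM at 48 h in 9 to 18 and 27 to 36 cells. Ackr3, another receptor of Cxcl12 that scavenges it, had 29.3, 34.9 and 15.1 CPM in endothelial cells at day 10, against 11.89 and 11.97 CPM at 48 h, and was not called.

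**Figure D4:**
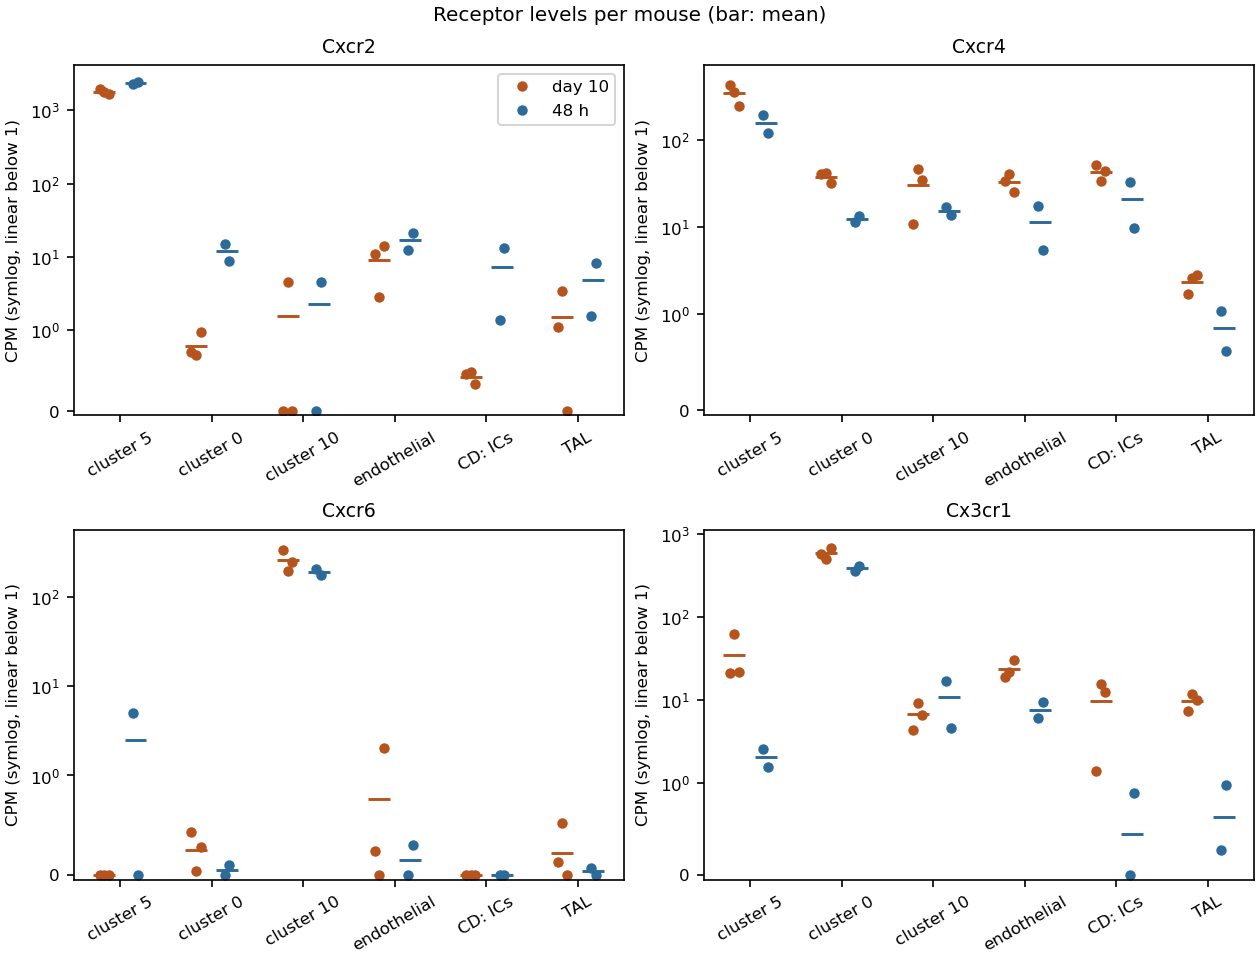
Receptor levels in CPM (y axis, logarithmic above 1 and linear below) in 3 immune clusters, endothelial cells, CD: ICs and AscenThickLOH (TAL on the x axis), 1 panel per receptor and 1 point per mouse, with bars at the mean and day 10 mice left of 48 h mice. In the macrophage-like cluster 0 every day 10 mouse had more Cxcr4 and less Cxcr2 than both 48 h mice, and Cxcr6 in the T/NK-like cluster 10 overlapped between the times.

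Cxcl16, a membrane-bound ligand that also takes up oxidised lipids, had 434, 321 and 370 CPM in the macrophage-like cluster at day 10, against 282 and 153 CPM at 48 h. The groups did not overlap, but no call was made (log2 fold change 0.84, SE 0.27, adjusted p = 0.0630, edgeR), whereas DESeq2 gave an adjusted p of 0.0174. It passed without mouse 4 (0.92, adjusted p = 0.0332), and was 1.33 without mouse 1, which leaves mouse 2 alone at 48 h. Between 86.5 and 90.1% of cells were positive at day 10 and 65.2 and 53.7% at 48 h. In cells with a monocyte marker UMI, Cxcl16 had 396, 306 and 342 CPM at day 10, against 203 and 104 CPM at 48 h, and rose (log2 fold change 1.26, SE 0.28, adjusted p = 0.0316), a call not made without mouse 2 (0.86, adjusted p = 0.1353), mouse 3 (0.0556) or mouse 5 (0.0966). In cells without one it had 481, 345 and 421 CPM at day 10, against 548 and 505 CPM at 48 h, and was not called (-0.28, adjusted p = 0.256). The difference between the sides of this division was not tested. For the whole immune label the rise was 1.08 (SE 0.27, adjusted p = 0.0401), not called without mouse 2 (adjusted p = 0.148), mouse 3 (0.0845) or mouse 5 (0.102) or with library sizes alone (0.0563).

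Tubular classes carried Cxcl16 as well. AscenThickLOH had 149, 101 and 108 CPM at day 10, against 59.7 and 45.3 CPM at 48 h, and it rose (log2 fold change 0.83, SE 0.21, adjusted p = 0.0474, edgeR). The call was lost without mouse 2 (adjusted p = 0.17), mouse 3 (0.0888), mouse 4 (0.0696) or mouse 5 (0.130) and without the highest cells (0.0540). Injured PTECs had 195, 148 and 232 CPM at day 10, against 90.5 and 61.6 CPM at 48 h, without overlap. CD: PCs had 234, 212 and 193 CPM at day 10, against 142 and 300 CPM at 48 h (log2 fold change -0.17, SE 0.28, adjusted p = 0.855). The 48 h mice lay on either side of the day 10 mice. Macrophage markers in AscenThickLOH were at 182 to 212 CPM at day 10 and 19.8 to 21.8 CPM at 48 h. Cxcl16 per 1000 macrophage marker UMIs was 494 to 823 at day 10 and 2079 and 3017 at 48 h there, against 21.5 to 26.7 and 25.4 to 30.4 in the macrophage-like cluster. In the neutrophil-like cluster Cxcl16 had 28.9, 34.3 and 31.2 CPM at day 10, against 13.5 and 6.89 CPM at 48 h, on 46 UMIs at day 10 and 34 UMIs at 48 h, and rose (log2 fold change 1.20, SE 0.38, adjusted p = 0.0493). That call stood at the threshold and was not made in DESeq2 (adjusted p = 0.163), without the highest cells (0.108) or without mouse 2 (0.398), mouse 3 (0.0858), mouse 4 (0.0681) or mouse 5 (0.135).

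Cxcr6, the receptor of Cxcl16, was found almost only in the T/NK-like cluster, which held 90.7% of its UMIs on average at day 10 and 87.1% at 48 h. It had 341, 197 and 249 CPM there at day 10, against 207 and 176 CPM at 48 h. The groups overlapped, and no call was made (log2 fold change 0.46, SE 0.24, adjusted p = 0.702, edgeR). Its share of cells was 68.3, 45.7 and 50.5% at day 10 and 48.1 and 41.9% at 48 h at median depths of 5682, 5882 and 5430 UMIs against 5037.5 and 6060 UMIs, whereas PTEC: S1 held 0 Cxcr6 UMIs in every library. NK cell markers in the cluster were at 645 to 844 CPM at day 10 and 3454 to 3758 CPM at 48 h, and T cell markers at 3014 to 3523 and 2990 to 3192 CPM. Cells of the cluster with a Cd3 UMI had 384, 239 and 315 CPM of Cxcr6 at day 10, against 277 and 213 CPM at 48 h, and cells without one had 42.1, 0 and 63.3 CPM at day 10, against 24.7 and 41.7 CPM at 48 h. Cxcr6 was thus higher in the cells with a T cell receptor complex transcript in all 5 mice.

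Cx3cl1, the membrane-tethered CX3C ligand also called fractalkine, had 146, 137 and 96.1 CPM in interstitial cells at day 10, against 112.5 and 89.1 CPM at 48 h. The groups overlapped, and no call was made (log2 fold change 0.35, SE 0.22, adjusted p = 0.400, edgeR). The label joins 2 clusters of unlike level. Cluster 7 had 169, 161 and 129 CPM at day 10, against 275 and 176 CPM at 48 h (log2 fold change -0.55, adjusted p = 0.253). Cluster 9 had 15.1, 11.45 and 8.82 CPM at day 10, against 39.4 and 29.4 CPM at 48 h, without overlap (log2 fold change -1.55, SE 0.42, adjusted p = 0.171, with 0.286% of genes called). Both clusters were thus lower at day 10 in value while the label was higher, and cluster 7 supplied 240, 208 and 98 of 349, 286 and 184 interstitial cells at day 10 and 28 and 23 of 115 and 71 at 48 h. Endothelial cells had 79.1, 52.3 and 77.9 CPM at day 10, against 65.7 and 38.9 CPM at 48 h, which overlap (log2 fold change 0.32, SE 0.25, adjusted p = 0.619). The level was higher in deposited cluster 8, the smaller of the 2 endothelial clusters, with 324, 218 and 217 CPM at day 10, against 250 and 102 CPM at 48 h, and 58.5 to 72.5% of cells positive at day 10 and 48.2 and 68.6% at 48 h. Cluster 3 had 24.6, 21.8 and 27.7 CPM at day 10, against 29.9 and 27.0 CPM at 48 h. Neither cluster gave a call for Cx3cl1, with 1.09% of genes called in cluster 3 and 0% in cluster 8.

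In AscenThickLOH Cx3cl1 had 66.5, 50.4 and 65.5 CPM at day 10, against 81.4 and 86.3 CPM at 48 h. The day 10 mice all lay below the 48 h mice, and Cx3cl1 fell (log2 fold change -0.82, SE 0.14, adjusted p = 0.0171, edgeR). The share of cells was 64.9, 54.4 and 61.1% at day 10 and 71.0 and 73.6% at 48 h. The call was not made without mouse 5 (adjusted p = 0.0835) or with library sizes alone (-0.46, adjusted p = 0.0540), under which the median of all genes in that label was 0.36 in place of 0.00030. Injured DTECs had 61.0, 38.7 and 66.6 CPM at day 10, against 70.3 and 49.8 CPM at 48 h, which overlap.

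Cx3cr1, the receptor of Cx3cl1 on monocytes and macrophages, had 570, 492 and 667 CPM in the macrophage-like cluster at day 10, against 356 and 405 CPM at 48 h, without overlap. It rose there (log2 fold change 0.65, SE 0.15, adjusted p = 0.0271, edgeR), and 83.1, 77.3 and 85.4% of cells were positive at day 10 and 70.0 and 78.8% at 48 h. The call was not made without mouse 1 (adjusted p = 0.162), mouse 2 (0.108), mouse 3 (0.0551) or mouse 5 (0.0741). In cells with a monocyte marker UMI the level was 479, 448 and 549 CPM at day 10, against 310 and 363 CPM at 48 h (log2 fold change 0.62, adjusted p = 0.0279), a call not made without mouse 1 (adjusted p = 0.174), mouse 2 (0.1353) or mouse 5 (0.0962). In cells without one it was 684, 559 and 885 CPM at day 10, against 507 and 706 CPM at 48 h (0.29, adjusted p = 0.360). Per 1000 macrophage marker UMIs it stood at 35.04, 32.97 and 43.9 at day 10 and at 38.3 and 67.0 at 48 h. For the whole immune label the rise was 0.91 (SE 0.14, adjusted p = 0.0109), not called without mouse 1 (adjusted p = 0.0840) or mouse 2 (0.0952).

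Cx3cr1 was also called in 2 classes where it was scarce, and in both it passed the filter on low counts only through the day 10 libraries and the macrophage markers moved with it. AscenThickLOH had 7.22, 11.6 and 9.77 CPM at day 10, against 0.272 and 0.979 CPM at 48 h, on 157 UMIs at day 10 and 12 UMIs at 48 h, a ratio of 17.1 with an exact 95% counting interval of 9.54 to 33.9 (log2 fold change 3.71, SE 0.50, adjusted p = 0.00903, edgeR). Per 1000 macrophage marker UMIs this was 39.7, 56.9 and 46.0 at day 10 and 13.8 and 44.9 at 48 h, and the part of other cells' RNA in the result was not tested. The call was not made without mouse 5 (3.68, adjusted p = 0.0643). The neutrophil-like cluster had 20.9, 61.0 and 21.4 CPM at day 10, against 2.52 and 1.53 CPM at 48 h (log2 fold change 3.42, SE 0.64, adjusted p = 0.00517). That rests on 42 UMIs at day 10 and 7 at 48 h, a ratio of 15.3 with an exact 95% counting interval of 6.79 to 40.3, and the highest cell held 61.5, 75.0 and 38.5% of the UMIs at day 10. Without the highest cells too few UMIs remained for a test. Macrophage markers in the cluster were at 541 to 892 CPM at day 10 and 260 to 295 CPM at 48 h, and monocyte markers at 263, 3108 and 503 CPM at day 10 and 435 and 670 CPM at 48 h. Endothelial cells had 18.7, 21.7 and 29.9 CPM at day 10, against 5.95 and 9.28 CPM at 48 h, without a call unless the highest cells were left out (2.42, adjusted p = 0.0465), and their macrophage markers were at 258 to 585 CPM at day 10 and 47.6 to 71.8 CPM at 48 h. In endothelial cluster 3 alone, Cx3cr1 had 12.6, 10.8 and 26.5 CPM at day 10, against 0.592 and 0.711 CPM at 48 h, on 2 UMIs in each 48 h library. At these counts it passed the filter on low counts only through the day 10 libraries, so that a gap between the times was built into its selection. The call there (log2 fold change 4.49, SE 0.66, adjusted p = 0.0248, edgeR) was made in 1 of the 5 fits without a mouse.

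The time effects of Cxcr2, Cxcr4, Cx3cr1 and Cxcl10 differed between the macrophage-like and neutrophil-like clusters. Those of Cxcl1, Cxcl2, Cxcl12, Cxcl16 and Cx3cl1 were tested as well and gave no call (adjusted p of 0.680 to 0.981, edgeR interaction). The fall of Cxcr2 was smaller in cluster 5 than in cluster 0 by 2.71 on the log2 scale (SE 0.29, adjusted p = 1.58e-07, edgeR interaction with mouse as a block, 16.4% of all genes called). The change of Cxcr4 was lower in cluster 5 by 1.13 (SE 0.26, adjusted p = 0.00245), a call not made without mouse 1 (-0.67, adjusted p = 0.197) or with library sizes alone (-0.42, adjusted p = 0.240). That of Cx3cr1, which in cluster 5 passed the low-count filter only through day 10, was higher by 2.67 (SE 0.55, adjusted p = 9.74e-04). That of Cxcl10 was higher by 1.69 (SE 0.50, adjusted p = 0.0194) and depended on mouse 5, in which cluster 5 had 104 CPM against 11.2 and 3.81 CPM in the other day 10 mice and 14.3 and 10.7 CPM at 48 h; without it the difference was -0.39 (adjusted p = 0.772). Between interstitial and endothelial cells the call was made for Cxcl10, lower by 3.77 in interstitial cells (SE 0.56, adjusted p = 0.00338, 3.29% of genes called), and it shares the single cells named above. It was not made without mouse 3 (-2.85, adjusted p = 0.0503). Between AscenThickLOH and PTEC: Lrp2+ S2/3 Cxcl10 differed by -5.06 (SE 1.06, adjusted p = 0.0259), not called without mouse 2 (-2.93, adjusted p = 0.368). In PTEC: Lrp2+ S2/3 it had 9.32, 24.6 and 4.86 CPM at day 10, against 3.55 and 0 CPM at 48 h.

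Level and cell number together set where a gene's UMIs came from. Of the Cxcl2 UMIs of a library, cluster 5 supplied 17.6% on average at day 10 and 58.0% at 48 h, cluster 0 supplied 27.5% and 17.9%, and Injured PTECs 21.6% and 2.18%, at the same times. Cluster 0 supplied 65.5% of Cxcr4 UMIs at day 10 and 22.6% at 48 h, and cluster 5 supplied 12.3% and 56.2%. For Cx3cl1 the interstitial label supplied 24.2% at day 10 and 3.94% at 48 h, and AscenThickLOH 19.6% and 54.4%. Cluster 0 supplied 62.0% of Cxcl16 at day 10 and 33.9% at 48 h. Injured PTECs supplied 53.8% of Cxcl1 on average at day 10 and 32.6% at 48 h. Per mouse these were 51.2, 68.8 and 41.4% at day 10 and 59.1 and 6.0% at 48 h, which overlap. The whole library of mouse 2 held 50 Cxcl1 UMIs. Cluster 5 supplied 90.5% of Cxcr2 at day 10 and 94.1% at 48 h, and cluster 0 supplied 97.2% and 98.3% of Cx3cr1. These shares depend on the number of cells recovered per class as well as on the level, and were not tested. Cluster 0 held 1856, 1584 and 1753 cells at day 10 and 514 and 614 at 48 h. Injured PTECs numbered 305, 48 and 251 cells at day 10 and 590 and 99 at 48 h, so their larger share of Cxcl2 at day 10 did not follow the cell number.

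**Figure D5:**
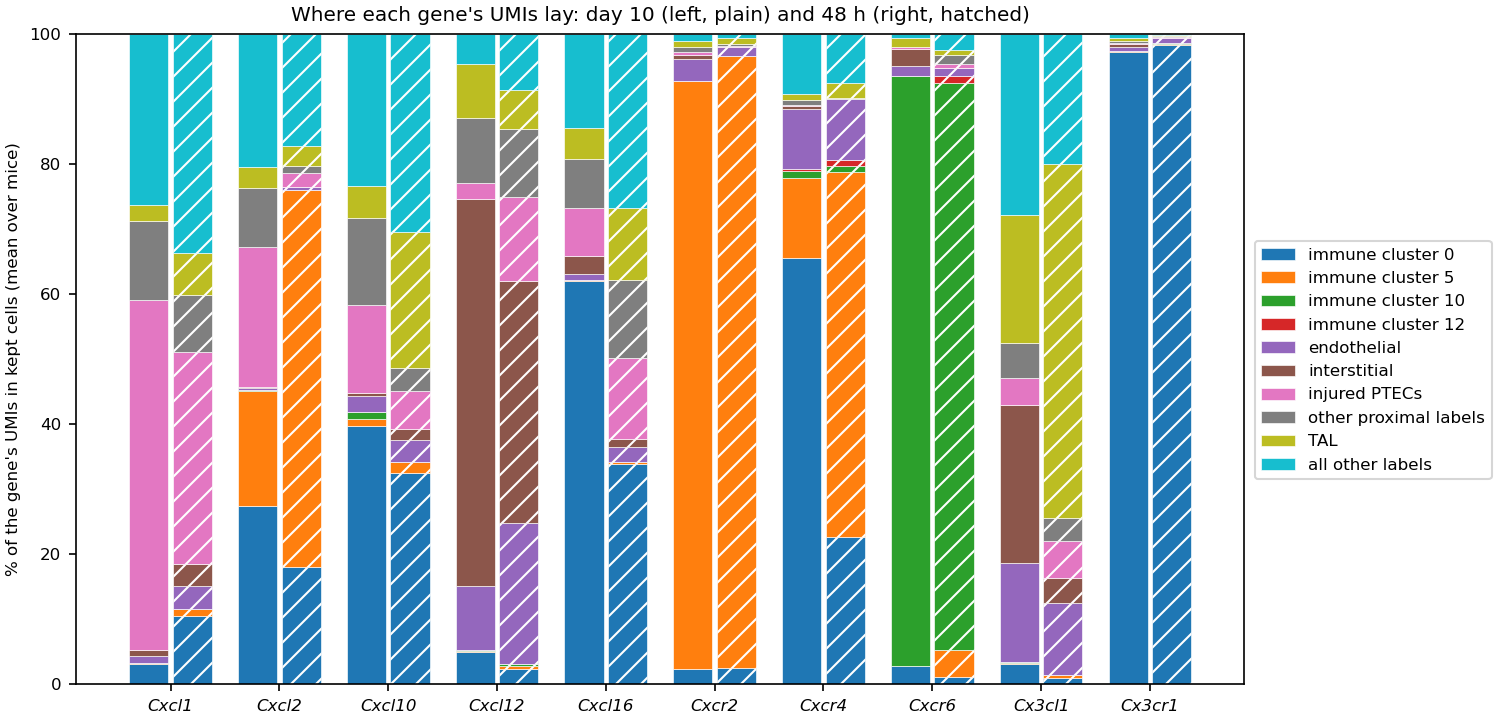
Percent of each member's UMIs in kept cells (y axis, mean over mice) by cell class (colours, TAL for AscenThickLOH), with the plain day 10 bar (n = 3) left of the hatched 48 h bar (n = 2) for each gene on the x axis. Cluster 5 supplied 12.3% of Cxcr4 UMIs at day 10 and 56.2% at 48 h, whereas cluster 0 supplied 97.2% and 98.3% of those of Cx3cr1.

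Other genes of the chemokine system, from lists that included 10 further CXC ligands, 5 receptors, 3 proteases and 11 signalling genes, moved in some of the same classes. Among the further ligands 4 of 5 tested rose in AscenThickLOH (10.4% of all genes called), 2 of 4 in DescThinLOH (5.12%), 1 of 3 in Injured PTECs (5.88%), 2 of 7 in cluster 0 (24.1%), 1 of 2 in cluster 5 (18.5%) and 2 of 7 in the whole immune label (19.2%), and in interstitial cells 2 of 5 rose and 2 fell (7.44%). The other labels and cluster 10 gave no call on these ligands. The median log2 fold change of the tested ligands lay between -1.68 in interstitial cells and 5.39 in Injured PTECs, with 3.53 in AscenThickLOH, 0.22 in cluster 0 and -0.65 in DCT, over the few ligands that passed the filter on low counts. Cxcl5, another Cxcr2 ligand, rose in 5 labels and in cluster 0. In Injured PTECs it had 61.5, 96.9 and 89.9 CPM at day 10, against 1.93 and 0 CPM at 48 h (log2 fold change 5.39, SE 0.53, adjusted p = 0.00820, edgeR). In interstitial cells Cxcl5 had 56.5, 41.5 and 42.8 CPM at day 10, against 1.29 and 0 CPM at 48 h (5.91, adjusted p = 0.00163), on 465 UMIs at day 10 and 1 UMI at 48 h, a ratio of summed levels of 65.3 with an exact 95% counting interval of 11.7 to 2586. These calls in Injured PTECs and interstitial cells stood without each mouse in turn, while the others of Cxcl5 did not. In interstitial cells, with a filter level of 4.81 CPM, Cxcl5 passed the filter only through the day 10 libraries. A gap between the times was thus built into its selection, which the fits without 1 mouse do not remove. In Injured PTECs, with a filter level of 1.41 CPM, mouse 1 alone passed at 48 h. Cxcl14, a ligand of stromal and epithelial cells, had 1140, 1724 and 1063 CPM in interstitial cells at day 10, against 177 and 92.6 CPM at 48 h (3.30, adjusted p = 0.00163). Cxcl17, a mucosal chemokine, had 31.4, 14.5 and 21.9 CPM in AscenThickLOH at day 10, against 3.94 and 2.45 CPM at 48 h (2.44, adjusted p = 0.0113), a call not made without mouse 5. In all 4 of these the day 10 mice lay above the 48 h mice. The platelet chemokine Ppbp had 0 CPM in interstitial cells at day 10, against 113.8 and 41.9 CPM at 48 h, at least 75.9-fold lower at a floor of 3 UMIs per day 10 library, and the platelet list there was at 2.51 to 5.56 CPM at day 10 and 33.2 and 49.1 CPM at 48 h.

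In the neutrophil-like cluster Cxcr1, a receptor related to Cxcr2, had 24.1, 0 and 16.4 CPM at day 10, against 53.8 and 68.5 CPM at 48 h, and fell (log2 fold change -2.42, SE 0.42, adjusted p = 0.00345, edgeR). Both proteases tested there fell, Adam10 by 0.65 and Adam17 by 0.86 on the log2 scale, as did 3 of 11 signalling genes, the G protein subunit Gnai2 (-0.67), the GTPase Rac2 (-0.77) and its exchange factor Dock2 (-0.96). In that cluster 18.5% of all genes were called, which is near the share of the signalling genes. The median of the 11 was -0.48, against 0.04 over all genes. With library sizes alone these 5 kept their direction at -0.12 for Adam10, -0.34 for Adam17, -0.15 for Gnai2, -0.25 for Rac2 and -0.43 for Dock2 and none was called, whereas Cxcr1 was (-1.89, adjusted p = 0.00634). Relative to the all-gene median of 0.57 under that scaling, all 6 values were lower. In the macrophage-like cluster Cxcr3 rose on low levels, with 9.67, 3.98 and 8.12 CPM at day 10, against 2.16 and 0.914 CPM at 48 h (2.33, adjusted p = 0.0287), a call made without mouse 4 and in no other fit without 1 mouse. The 31 calls on these genes over all labels and clusters lay in classes where 0.238 to 24.1% of all genes were called, and their number was not tested against those shares. Of the 31, 8 stood without each mouse in turn, 25 with library sizes alone and 26 in DESeq2.

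The genes whose levels ran most like each member over 21 classes were compared among 13288 genes, by the Pearson correlation of log2(CPM + 1) of the mean levels over mice. They are descriptions over classes that share libraries and depth. Cxcr6 ran with Il2rb, an interleukin receptor chain of T and NK cells (r = 0.992), Cxcr2 with the granulocyte growth factor receptor Csf3r (0.968) and Cx3cr1 with the complement receptor C3ar1 (0.959). Cxcr4 ran with Ripor2 (0.918), Cx3cl1 with the collagen chaperone Serpinh1 (0.912) and Cxcl16 with Tmem51 (0.893). The likeness was lower for Cxcl1 with Atp6v0e2 (0.851), Cxcl12 with the metalloproteinase Mmp17 (0.847), Cxcl2 with the interleukin 1 antagonist Il1rn (0.776) and Cxcl10 with Ubash3b (0.728).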

How the data were processed

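Single-cell RNA libraries of 5 kidneys, 1 per mouse, were analysed as deposited. Per the labels, libraries were made with the v3.1 kit of 10x Genomics for 3′ ends, and the submitters' processing notes name Cell Ranger 6.0.2, Seurat 4.0.5 and mm10, while the matrix headers give Cell Ranger 6.0.0. The authors deposited raw UMI counts per gene and barcode, and a table of 23797 kept cells with cell type label, cluster, UMI count and percent of mitochondrial UMIs, all at or above 1000 UMIs and at most 34.991% mitochondrial. The sources used here state no step against doublets or free RNA.

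UMIs were summed per mouse and label, or per mouse and immune cluster. Where each library held at least 20 cells, genes kept by filterByExpr were scaled by TMM and day 10 was tested against 48 h by the quasi-likelihood test of edgeR 4.0.16 under R 4.3.3, with Benjamini-Hochberg adjustment over all genes of that label or cluster and a threshold of 0.05. The standard error (SE) of a log2 fold change was obtained by dividing its absolute value by the square root of the F statistic. CPM use raw totals and fold changes use TMM factors, so their ratios can differ. Differences of the time effect between classes came from an interaction term with mouse as a block. P-values set the difference between the times against the spread among mice within the groups, 3 at day 10 and 2 at 48 h. Fits without mouse 1 or mouse 2 leave a single library at 48 h and hold no spread among mice at that time. Cells were thinned to 1000 UMIs for shares by exact expectation. Intervals (exact, 95%) and floors (3 UMIs) cover counting error only. The rule for named genes took the 10 members in every class, up to 3 rises and 3 falls per class from lists of other ligands, receptors, proteases and signalling genes, and the partners Cxcr3, Ackr3 and Cxcl9; members and lists were chosen with earlier results of these data known. The genes most like a member were the highest in Pearson r of log2(CPM + 1) among genes of at least 10 CPM in a class. Alternatives were DESeq2 1.42.0, no TMM, no filter on low counts, each mouse left out, the cells in the top 5% of UMIs left out and labels merged into parent types. After seeing the data, the highest cell of each member and library was left out, and the endothelial, interstitial and macrophage-like cells were divided. Gene positions came from GENCODE M21 and promoters from RefSeq. The fits were tested on simulated counts with known changes. Figures were drawn with matplotlib 3.10.9 under Python 3.11.15.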

Additional observations from a re-analysis of the deposited data

Results flagged for a closer look

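The time effect, day 10 over 48 h, differed between cell classes for 7 pairs of a member and a comparison by the edgeR interaction test, and the other pairs tested gave no call. Of all genes 16.4% were called between clusters 5 and 0, 3.29% between interstitial and endothelial cells and 3.67% between AscenThickLOH and PTEC: Lrp2+ S2/3. Between the neutrophil-like cluster 5 and the macrophage-like cluster 0 the difference of the log2 fold changes was 2.71 for Cxcr2, 2.67 for Cx3cr1, 1.69 for Cxcl10 and -1.13 for Cxcr4. Cxcr2 fell in both clusters and fell further in cluster 0, where the neutrophil markers were at 57.9 to 102 CPM at day 10 and 1449 to 3273 CPM at 48 h and Cxcr2 per neutrophil marker UMI overlapped between the times. In cluster 5, Cx3cr1 passed the filter on low counts only through the day 10 libraries. The Cx3cr1 value rests there on 42 UMIs at day 10 and 7 at 48 h, too few for a test without the highest cells. The macrophage markers there were at 541 to 892 CPM at day 10 and 260 to 295 CPM at 48 h. The part of these markers in the differences was not tested. Between interstitial and endothelial cells the difference was -3.77 for Cxcl10, whose 48 h level in interstitial cells was that of 1 cell in each mouse. Between AscenThickLOH and PTEC: Lrp2+ S2/3 it was -5.06 for Cxcl10 and 2.03 for Cxcl12. At 48 h PTEC: Lrp2+ S2/3 held 4 Cxcl10 UMIs in mouse 1 and 0 in mouse 2. The values for Cxcr2 and Cx3cr1 were called under all 7 alternatives run, while that for Cxcl10 between the immune clusters turned to -0.39 without mouse 5.

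Barcodes that the authors' table leaves out also held UMIs of every member, above 3 UMIs (the limit that a count of 0 allows) when summed over the 5 libraries, although Cxcr6 had 2 or 3 UMIs in mice 1, 2 and 4. Per library, 51.2 to 69.2% of these barcodes had a higher mitochondrial percent than any kept cell. Their median depth per library was 1379 to 1825 UMIs. In sum they held 1643 UMIs of Cxcl1, 1365 of Cxcl2, 2930 of Cxcl10, 712 of Cxcl12 and 10601 of Cxcl16. They held 294 of Cxcr2, 291 of Cxcr4, 28 of Cxcr6, 3010 of Cx3cl1 and 1501 of Cx3cr1. In the kept cells the totals were 4015 UMIs of Cxcl1, 8576 of Cxcl2, 8554 of Cxcl10, 4670 of Cxcl12, 54835 of Cxcl16, 12723 of Cxcr2, 5154 of Cxcr4, 672 of Cxcr6, 8900 of Cx3cl1 and 49123 of Cx3cr1. The sets differ in the share that lies outside, which was highest for Cxcl1 and lowest for Cxcr2.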

How the results depend on the processing

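The count of member and label pairs past the threshold was 12 with edgeR, 21 with DESeq2 and 41 with no filter on low counts, and 9 to 11 under the other alternatives for that count. Leaving out each mouse in turn gave 6 to 13 label pairs, 3 to 8 cluster pairs against 7, and 5 to 7 interactions against 7. The log2 difference of the Cxcr4 to Cxcr2 ratio ranged from 1.16 to 1.95. Of the 19 called pairs, 3 stood in every fit without 1 mouse, namely Cxcl2 in the immune label, Cxcr2 in cluster 0 and Cx3cr1 in cluster 5, and 12 stood under DESeq2, no TMM, no filter, the cells in the top 5% of UMIs left out and, where it applied, merged labels. The immune label mixes its clusters in unlike parts at day 10 and at 48 h. Cx3cr1 in cluster 5 passed the filter on low counts only through the day 10 libraries. A gap between the times was thus built into its selection, which the fits without 1 mouse do not remove. Directions turned only for values that were not called or rest on few cells, with Cxcl2 in cluster 0 and the Cxcl10 interaction as the called exceptions. Over the fits without 1 mouse, Cxcl16 in CD: PCs ranged from -0.59 to 0.42 and Cxcl10 in DescThinLOH from -1.39 to 0.15. Cxcl12 ranged from -0.81 to 0.30 in endothelial cells and from -1.56 to 0.61 in interstitial cells, Cx3cl1 in endothelial cells from -0.0058 to 0.75, and Cxcl2 in cluster 5 from -1.29 to 0.27. These ends came without mouse 2 for the upper values of Cxcl16 and Cxcl12 and the lower of Cx3cl1, without mouse 4 for Cxcl10 (0.15) and without mouse 1 for Cxcl2, which was 0.12 without mouse 3. The Cxcl10 interaction of clusters 5 and 0 ranged from -0.39 without mouse 5 to 2.54. Without the cells in the top 5% of UMIs, Cxcl10 in DescThinLOH was 0.049 and Cxcl12 in endothelial cells 0.16, and with library sizes alone Cxcl2 in cluster 5 was 0.27. Divisions made after the data were seen turned Cx3cl1 in endothelial cluster 3 (-0.30), Cx3cl1 in interstitial clusters 7 (-0.55) and 9 (-1.55), Cxcl16 in interstitial cluster 7 (-0.51) and endothelial cluster 8 (0.45), Cxcl2 in cluster 0 with a monocyte marker UMI (0.24), and Cxcl10 (0.85), Cxcl16 (-0.28), Cx3cl1 (-1.11) and Cxcl1 (-0.90) in cluster 0 without one. The causes were not tested. The count of all genes called in a class moved by more than 1.5 times in 60 of 90 fits without 1 mouse and in 42 of 80 other fits. No paired analysis was possible because mice 3 to 5 were sampled only at day 10 and mice 1 and 2 only at 48 h. Values on few UMIs, such as Cx3cr1 in cluster 5 (42 at day 10 and 7 at 48 h), have wide counting intervals. Over all kept cells the median cell held fewer UMIs at 48 h. In cluster 5 it held more at 48 h, with 3271.5 and 4831.5 UMIs against 2556, 2628 and 2706 UMIs at day 10.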
